A study of Mus musculus with 20 samples.

Results

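Aminoacyl-tRNA synthetases, the enzymes that join each amino acid to its transfer RNA, were followed through dendritic cell development in the mouse. The members were chosen by name: 20 genes for cytosolic enzymes or their subunits and 12 for mitochondrial enzymes, whose symbols end in 2. Where a gene had several probe sets, the brightest one on average over the 20 arrays stood for it. Of these 32 genes, 31 had a named probe set (19 cytosolic and 12 mitochondrial) among 18193 genes in all. Dars was not measured here, and Mars is listed under its newer symbol Mars1.

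A synthetase activates its amino acid with ATP and transfers it to the matching tRNA, so the set of enzymes supplies every ribosome with charged tRNA. In the cytosol, Dars, Eprs, Iars, Kars, Lars, Mars, Qars and Rars sit in the multisynthetase complex, and the remaining enzymes work outside it. The complex is held together by the scaffold proteins Aimp1, Aimp2 and Eef1e1. Mitochondria translate their own genome with a separate set of nuclear-encoded enzymes, while Gars and Kars each encode a form for both compartments. When amino acids run short, uncharged tRNA activates the kinase Eif2ak4 (GCN2), and the transcription factor ATF4 then raises amino acid synthesis, amino acid transport and many cytosolic synthetases. MYC, a transcription factor of growing cells, is also known to drive genes of protein synthesis.

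All samples came from C57BL/6 mouse bone marrow, and each of the 10 groups had 2 arrays (Affymetrix mouse whole-genome). Multipotent progenitors (MPP) and common dendritic cell progenitors (CDP) were amplified in culture, and such progenitors were then differentiated. The products were conventional dendritic cells (cDC), known for priming T cells, and plasmacytoid dendritic cells (pDC), known for secreting type I interferon. In vivo CDP were isolated directly from marrow, without amplification. In a separate series, cultured CDP received TGF-β1, a cytokine, and were taken at 4, 8, 12 or 24 h, with untreated cells as the 0 h group. No untreated culture was taken later, so the effect of TGF-β1 cannot be told apart from that of time in culture. The labels give neither the TGF-β1 dose nor the number of mice behind a sample, and they do not say that replicates came from separate cultures, so the p-values reflect only how far these samples differ, which may be technical. Levels are deposited log2 intensities, a difference of 1 being a 2-fold change, and in bulk RNA a lower level cannot be assigned to fewer cells of a type or to less RNA per cell.

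With 2 arrays a group, the number of arrays sets the precision here. The TGF-β1 arrays had medians of 5.29 to 5.36, against 2.46 to 2.52 on the other 10, which share a floor at 2.25, so levels were never compared between these sets. The marker check went with the labels for the differentiated cells: relative to CDP, cDC had all 10 cDC markers raised, and pDC had 8 of 9 measured pDC markers raised, with Klk1 lower. The lists were not exclusive, since 7 of 9 pDC markers also rose in cDC and 5 of 10 cDC markers also rose in pDC. Progenitor markers had summed log2 levels of 15.31 to 15.36 in MPP, 13.50 to 13.59 in CDP, 15.14 to 15.16 in vivo and 12.13 to 12.90 in the dendritic cells. In the TGF-β1 series, 5′ probe sets of control transcripts were dim on replicate 1 of the 4, 12 and 24 h groups: the 3′ minus 5′ difference for Gapdh was 2.09 to 2.78 there and 0.01 to 0.10 on the other TGF-β1 arrays, and that for β-actin was 1.89 to 2.11 against 0.19 to 0.35.

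The promoters of the members were read from RefSeq (GRCm38.p6, 250 bases before to 50 after each start), where 13 of 20 cytosolic and all 12 mitochondrial genes had an entry. Cars, Hars, Lars, Nars, Rars, Vars and Wars had none in that table. The half-element TGATGNAA, a sequence bound by ATF4 with C/EBP partners, was searched on both strands. It was present in 5 of the 13 cytosolic genes and in 0 of the 12 mitochondrial genes, against 4.51% of 27025 genes with such a promoter. The match nearest the start of each of the 5 genes is shown, because Yars, Aars and Gars are among the genes with the largest falls in cDC or pDC described further on. Cars, Lars and Rars, prominent in other comparisons, have no promoter entry. Capitals mark the match, which reads TTNCATCA where it lies on the opposite strand, and each line is written along its gene's own strand.
Yars, chr4:129189895-129189924, plus strand: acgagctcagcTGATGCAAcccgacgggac
Gars, chr6:55037960-55037989, plus strand: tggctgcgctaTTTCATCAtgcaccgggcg
Aars, chr8:111033840-111033869, plus strand: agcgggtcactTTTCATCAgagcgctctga
Iars, chr13:49682126-49682155, plus strand: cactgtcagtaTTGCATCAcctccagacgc
Tars, chr15:11399655-11399684, minus strand: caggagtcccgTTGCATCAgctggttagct
The matches shown lay between offsets -30 and 9 from the listed start. The E-box CACGTG, a sequence bound by MYC with MAX, was in 4 of the 13 cytosolic genes (Aars, Farsb, Iars and Tars) and in 1 of the 12 mitochondrial genes (Ears2), against 8.09% of all genes. The core AANNGAAA of interferon regulatory factor sites was in 3 of 13 (Farsa, Qars and Sars) and 1 of 12 (Lars2), against 26.7% of all genes. In these promoters no match of one motif overlapped a match of another, and a match describes the sequence only.

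No synthetase passed the test between MPP and CDP. In limma's test with Benjamini-Hochberg adjustment over all genes tested, 0 of 19 cytosolic and 0 of 9 tested mitochondrial members passed the threshold of 0.05, where 7.51% of all tested genes did. At an unadjusted p under 0.05 the counts were 2 and 0. The median difference was 0.09 for cytosolic and -0.23 for the 12 measured mitochondrial genes. Farsa, the alpha subunit of the phenylalanine enzyme, had the largest difference: it read 8.52 and 8.82 in MPP and 7.71 and 7.98 in CDP (log2 difference -0.82, adjusted p = 0.061). The same arrays separated MPP from CDP for other genes, since Myc read 11.13 and 10.33 in MPP and 8.39 and 7.83 in CDP, a fall of 6.17-fold (limma, adjusted p = 0.0037).

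Both kinds of dendritic cell had lower synthetase levels than CDP. In cDC, 18 of 19 cytosolic members fell, where 29.3% of all tested genes fell and 18.7% rose, and the median difference was -1.54 against -0.16 over all genes tested. In pDC, 17 of 19 fell, where 31.6% of tested genes fell and 21.7% rose, and the median was -1.72 against -0.14. The 2 comparisons share the CDP arrays, so they are not independent of each other. The β-actin 3′ minus 5′ difference, a measure of transcript length after labelling, also moved with the groups: it was 1.23 and 2.11 in CDP, 0.69 and 0.84 in cDC and 0.84 and 0.94 in pDC, and its part in the result was not tested. The heat map by array shows the cytosolic block on the low side in all 4 dendritic cell arrays.

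**Figure D1:**
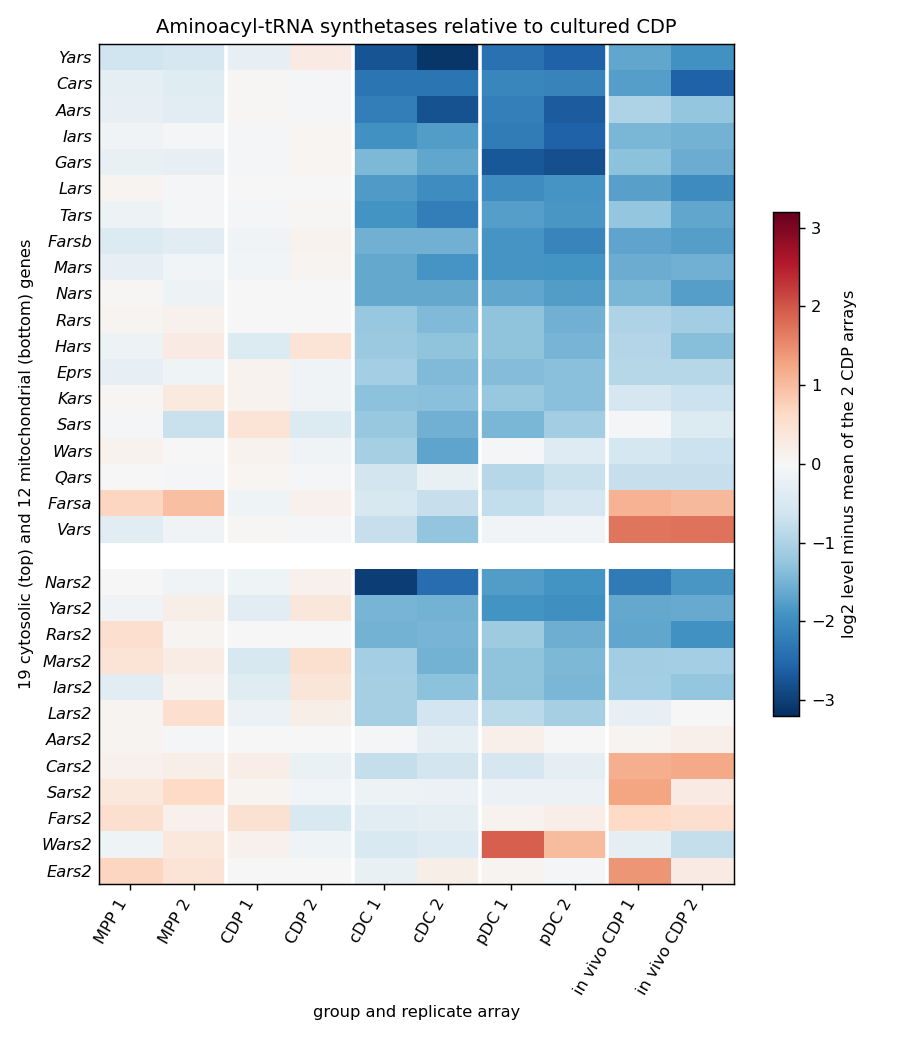
Log2 level of each measured synthetase gene (rows, 19 cytosolic above 12 mitochondrial) on each of the 10 arrays of the 5 cell groups (columns), relative to the mean of the 2 CDP arrays; blue is lower and red higher. Most cytosolic genes are blue in cDC, pDC and in vivo CDP, while Farsa and Vars are red in vivo and Wars2 is red in pDC.

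Among enzymes outside the complex, Yars, which charges tyrosine tRNA, read 8.46 and 8.99 in CDP, 5.97 and 5.60 in cDC and 6.33 and 6.15 in pDC. No dendritic cell array reached the CDP range, and the fall was 7.68-fold in cDC (log2 difference -2.94, SE 0.23, limma adjusted p = 0.0002) and 5.60-fold in pDC (-2.49, SE 0.23, adjusted p = 0.00024). Aars, the alanine enzyme, read 10.43 and 10.34 in CDP against 8.17 and 7.60 in cDC and 8.20 and 7.73 in pDC. Its fall was of like size in both cell types, at 5.65-fold in cDC (adjusted p = 0.00046) and 5.34-fold in pDC (adjusted p = 0.00035, both limma). Cars, the cysteine enzyme, was at 8.65 and 8.58 in CDP and at 6.27 on both cDC arrays, a fall of 5.07-fold (limma adjusted p = 9.6e-05). Gars, the glycine enzyme of both compartments, dropped furthest in pDC, from 11.60 and 11.75 in CDP to 8.97 and 8.85, or 6.78-fold (log2 difference -2.76, SE 0.17, limma adjusted p = 4.6e-05). In cDC it stood between, at 10.25 and 10.02, a log2 difference from CDP of -1.54.

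Within the multisynthetase complex, 6 of 7 measured enzymes fell in cDC (median log2 difference -1.32) and 7 of 7 in pDC (-1.41). Outside it, 12 of 12 fell in cDC (median -1.54) and 10 of 12 in pDC (-1.77). Iars, the isoleucine enzyme of the complex, was at 12.32 and 12.47 in CDP, with cDC arrays at 10.46 and 10.60 and pDC arrays at 10.15 and 9.82. Lars, the leucine enzyme that also acts as a leucine sensor for mTORC1, had log2 differences of -1.90 in cDC and -1.94 in pDC. Qars, the glutamine enzyme, was the member of the complex that moved least: it read 12.18 and 12.06 in CDP and 11.53 and 11.88 in cDC (log2 difference -0.41, limma adjusted p = 0.11), and it fell by 0.81 in pDC. Of the scaffold proteins, Aimp2 was at 9.68 and 9.77 in CDP; its cDC arrays read 8.57 and 8.32, its pDC arrays 8.27 and 8.38. Aimp2 and Eef1e1 fell in both cell types, by 1.17 to 1.49 on the log2 scale, and Aimp1 fell in pDC by 0.89 (limma adjusted p = 0.011) while its difference in cDC was -0.60 (adjusted p = 0.054).

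The 2 subunits of the phenylalanine enzyme did not move alike in size. Farsb, the beta subunit, fell by 1.54 in cDC and by 2.00 in pDC on the log2 scale, whereas Farsa fell by 0.63 and 0.67 (limma adjusted p = 0.040 and 0.029). The 2 cytosolic members that did not pass the test in pDC were Vars, the valine enzyme (7.39 and 7.31 in CDP, 7.26 and 7.25 in pDC), and Wars, the tryptophan enzyme known for its induction by interferon-gamma (8.27 and 8.05 in CDP, 8.09 and 7.75 in pDC). Both fell in cDC, Vars by 1.00 and Wars by 1.38 on the log2 scale. In the interferon response list, 9 of 14 tested genes rose in cDC and 7 rose and 2 fell in pDC. Of all tested genes, 18.7% rose in cDC, and 21.7% rose and 31.6% fell in pDC. The part of the interferon response in the level of Wars was not tested. Other probe sets of Wars differed from CDP by -0.47 to -1.09 in pDC, where the chosen probe set differed by -0.24.

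Most tested mitochondrial members fell as well. Of 12 measured, 9 passed the filter of a value above 5 on at least 2 arrays; Aars2 (highest value 4.68) and Ears2 (3.89) stayed under 5 on all 8 of these arrays (pDC, cDC, CDP and MPP), and Sars2 was above 5 on 1 array (5.24). Mars2 was the member just inside the filter, above 5 on 3 arrays. In cDC 7 fell (Cars2, Iars2, Lars2, Mars2, Nars2, Rars2 and Yars2), and in pDC 6 fell (Iars2, Lars2, Mars2, Nars2, Rars2 and Yars2) and 1 rose (Wars2). The median over all 12 was -0.76 in cDC and -0.69 in pDC, which includes 3 untested genes near the floor; over the 9 that passed the filter it was -1.18 and -1.35. The filter can favour genes that are high in 1 group, so the cytosolic and mitochondrial medians are not on an equal footing. Mars2 passed it through both MPP arrays and 1 CDP array (4.56 and 5.59 in CDP), and all its dendritic cell values were under 5. With values under 5 raised to 5, Mars2 was not called, leaving 6 falls in cDC and 5 in pDC. Without cDC replicate 2, 4 of the mitochondrial members were called in cDC. With no filter on low values, which adds every dim gene to the test, 3 mitochondrial members were called in each cell type.

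Nars2, the mitochondrial asparagine enzyme, read 6.91 and 7.19 in CDP, 4.04 and 4.62 in cDC and 5.26 and 5.15 in pDC. Both cDC values lay under 5, so its fall was at least 4.14-fold in cDC (log2 difference of the deposited values -2.72, limma adjusted p = 0.00025), and it was 3.60-fold in pDC (-1.85, adjusted p = 0.00075). Yars2, the tyrosine enzyme, read 9.39 and 10.10 in CDP, 8.25 and 8.22 in cDC and 7.82 and 7.78 in pDC, with log2 differences of -1.50 and -1.94 (limma adjusted p = 0.0035 and 0.00094). Wars2, the tryptophan enzyme, went the other way in pDC: it read 5.45 and 5.18 in CDP, 4.83 and 4.91 in cDC and 7.22 and 6.34 in pDC. Both pDC arrays lay above every other array of the 5 cell groups, the rise over CDP was 2.76-fold (log2 difference 1.47, SE 0.32, limma adjusted p = 0.0074), and its second probe set gave a difference of 1.43.

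Set pair by pair, the mitochondrial enzyme had the less negative difference in 10 of 12 amino acids in cDC and in 11 of 12 in pDC. In these pairs Ears2 was set against Eprs, and Fars2 against Farsb, not Farsa. The median of mitochondrial minus cytosolic differences was 1.13 in cDC and 1.06 in pDC on the log2 scale. The asparagine pair was the exception in both, with mitochondrial minus cytosolic differences of -1.08 in cDC and -0.12 in pDC, as was the arginine pair in cDC (-0.19). Many mitochondrial probe sets lie near the floor of the values, where a difference is understated: Aars2 and Ears2 were under 5 on all 10 arrays of the cell groups. For CDP against MPP the mitochondrial difference was the less negative one in 1 of 12 pairs. Set against Farsa (-0.82) instead of Farsb, Fars2 (-0.33) would also be the less negative one there.

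**Figure D2:**
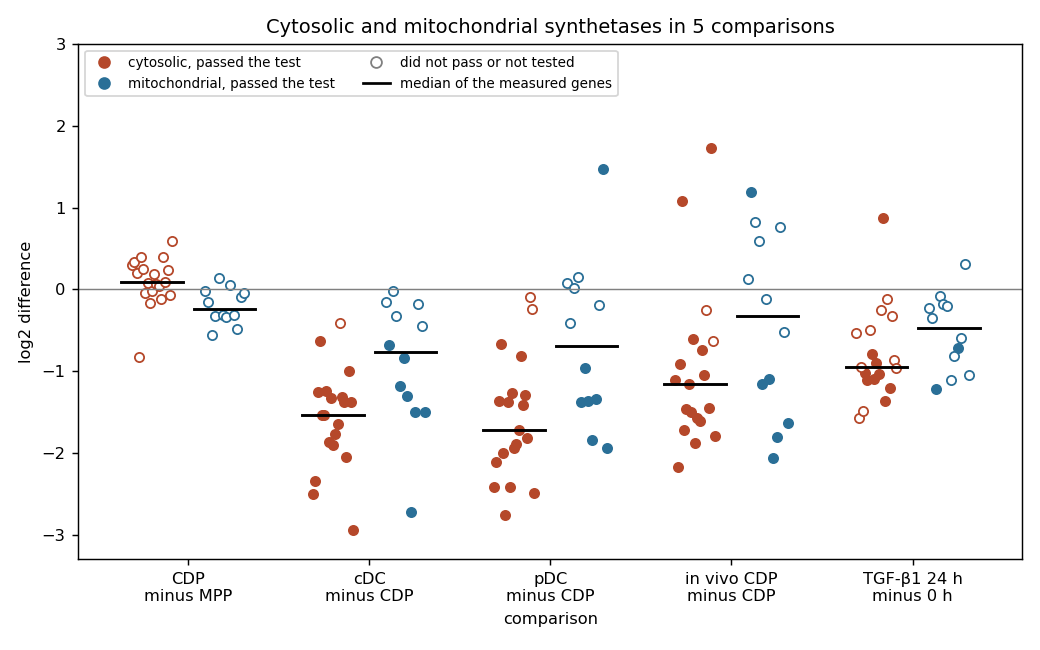
Log2 difference (vertical axis) of each measured cytosolic (red) and mitochondrial (blue) synthetase gene in 5 comparisons; filled points passed limma's test at an adjusted p of 0.05, open points did not or were not tested, and black lines are medians. The cytosolic medians are 0.09, -1.54, -1.72, -1.16 and -0.95 from left to right, and the mitochondrial medians are -0.23, -0.76, -0.69, -0.32 and -0.47.

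Few members separated the 2 dendritic cell types. In the direct comparison of cDC with pDC, Gars was higher in cDC (10.25 and 10.02 against 8.97 and 8.85, 2.34-fold, limma adjusted p = 0.0022), where 12.8% of tested genes were higher. Vars (6.61 and 6.09 against 7.26 and 7.25) and Wars (7.09 and 6.48 against 8.09 and 7.75) were lower in cDC, where 12.7% of tested genes were lower. Their log2 differences were -0.90 and -1.14 (limma adjusted p = 0.022 and 0.015). Of the mitochondrial members, Nars2 (log2 difference -0.88) and Wars2 (-1.91) were lower in cDC (limma adjusted p = 0.032 and 0.0050). The median difference was 0.05 for the 19 cytosolic and -0.10 for the 12 mitochondrial genes. Without cDC replicate 2 or without pDC replicate 1 only Gars stayed past the threshold among the cytosolic members. Without cDC replicate 1, pDC replicate 1 or pDC replicate 2, Wars2 stayed but Nars2 did not. With values under 5 raised to 5, the Nars2 difference was -0.20.

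CDP isolated from marrow had lower levels of most cytosolic synthetases than cultured CDP. Of 19 cytosolic members 15 fell, where 19.5% of tested genes fell, and 2 rose, where 27.6% rose; the median difference was -1.16 against 0.10 over all genes tested. Sars (-0.25) and Wars (-0.63, limma adjusted p = 0.055) did not pass. Cars fell from 8.65 and 8.58 in cultured CDP to 6.85 and 6.03 in vivo, 4.51-fold (log2 difference -2.17, SE 0.25, limma adjusted p = 0.00033). Lars fell from 11.46 and 11.51 to 9.75 and 9.47 (3.66-fold, limma adjusted p = 0.00011), and Yars from 8.46 and 8.99 to 7.07 and 6.80 (3.47-fold, adjusted p = 0.00056). All 7 measured enzymes of the complex fell (median -1.05), while the differences of the 3 scaffold genes, -0.41 to -0.49, did not pass.

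The members that rose in vivo were Vars, from 7.39 and 7.31 to 9.07 and 9.09 (3.32-fold, limma adjusted p = 0.00036), and Farsa, from 7.71 and 7.98 to 8.96 and 8.89 (2.11-fold, limma adjusted p = 0.0026). Farsb fell from 11.84 and 12.09 to 10.28 and 10.20, so the 2 subunits of the phenylalanine enzyme moved in opposite directions. For Qars, Hars and mitochondrial Yars2, Cars2 and Fars2 another probe set gave another picture in this comparison. It differed by 0.10 for Qars, where the chosen one differed by -0.74, by -0.10 for Hars, where the chosen one differed by -1.16, and by -0.08 for Yars2, where the chosen one differed by -1.63. For Cars2 it differed by 0.10, where the chosen one differed by 1.20. For Fars2, which did not pass, it differed by -0.86, where the chosen one differed by 0.59.

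Of the mitochondrial members, 10 passed the filter in this fit, 5 fell (Iars2, Mars2, Nars2, Rars2 and Yars2) and 1 rose (Cars2). Nars2 went from 6.91 and 7.19 to 4.80 and 5.18 (log2 difference -2.06, SE 0.24, limma adjusted p = 0.00034), and Rars2, the arginine enzyme, from 9.67 and 9.71 to 8.02 and 7.75 (-1.80, SE 0.22, adjusted p = 0.00045). Cars2 rose from 6.92 and 6.51 to 7.88 and 7.94 (2.29-fold, limma adjusted p = 0.0015), opposite in direction to cytosolic Cars, with its other probe set at a difference of 0.10. Mars2 read 3.96 and 3.99 in vivo, and with values under 5 raised to 5 it was not called, leaving 4 falls. The mitochondrial median was -0.32 over all 12 and -0.81 over the 10 that passed the filter, and the mitochondrial difference was the less negative one in 10 of 12 pairs (median gap 0.75). Fars2 (0.59, and -0.86 by its other probe set) was paired with Farsb there, and its difference was below that of Farsa (1.08). RNA amount (50 ng against 1 µg), labelling kit and extraction kit all changed with this group and cannot be told apart from it. The Gapdh 3′ minus 5′ difference was 0.98 and 0.47 in vivo, against -0.15 and 0.19 in cultured CDP.

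Ordered by group mean, the lowest of the 5 cell groups was pDC for 11 and cDC for 8 of the 19 cytosolic genes. The highest was cultured CDP for 12, MPP for 5 and in vivo CDP for 2. For the 12 mitochondrial genes the lowest group was cDC for 5, pDC for 5 and in vivo CDP for 2, and the highest was in vivo CDP for 5, MPP for 4, CDP for 2 and pDC for 1. Since 0 members passed the test between MPP and CDP and 5 between cDC and pDC, the order within each of these neighbouring pairs mostly rests on differences that did not pass.

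Genes of the ATF4 amino acid response were read beside the synthetases. This list was chosen with earlier results of these data known. In cDC 20 of its 26 tested genes fell and 1 rose (Ddit4), with a median of -3.27 over 27 measured genes. In pDC 21 fell and 1 rose (Ddit4 again, median -3.23), and in vivo 18 fell and 2 rose (Atf3 and Cebpb, median -1.16). Of all tested genes, 29.3% fell and 18.7% rose in cDC, and 31.6% fell and 21.7% rose in pDC. In vivo 19.5% fell and 27.6% rose. Asns, asparagine synthetase, read 13.01 and 12.54 in MPP and 13.16 and 12.98 in CDP. Its cDC arrays were at 7.35 and 5.74, its pDC arrays at 4.40 and 3.004 and its in vivo arrays at 6.07 and 4.26. Trib3, a pseudokinase induced by ATF4, read 10.53 and 9.998 in CDP and between 2.25 and 2.61 on every cDC, pDC and in vivo array, at least 38.4-fold lower in cDC. Cth, which makes cysteine, read 11.07 and 9.82 in CDP and 2.25 to 2.28 in all 3 other groups, at least 43.5-fold lower.

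Atf4 mRNA itself moved far less: CDP arrays read 11.32 and 11.13, cDC arrays 10.01 and 10.47, pDC arrays 10.57 and 10.71 and in vivo arrays 11.27 and 10.80. It fell by 0.98 in cDC and by 0.58 in pDC on the log2 scale (limma adjusted p = 0.0076 and 0.047), and its difference in vivo was -0.19 (adjusted p = 0.53). ATF4 is known to be controlled largely at translation, which these arrays do not measure. The part of ATF4 or of MYC in the synthetase result was not tested. Myc had another order across the groups: CDP arrays read 8.39 and 7.83, cDC arrays 9.51 and 9.14, pDC arrays 3.42 and 3.44 and in vivo arrays 10.15 and 10.09. It rose in cDC by 1.22 and in vivo by 2.01 on the log2 scale (limma adjusted p = 0.018 and 0.0010) and fell at least 8.62-fold in pDC (adjusted p = 7.1e-05). Mycl, a related gene known from dendritic cells, rose in cDC, pDC and in vivo CDP from levels under 5 in CDP, at least 13.1-fold, 17.8-fold and 8.32-fold.

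**Figure D3:**
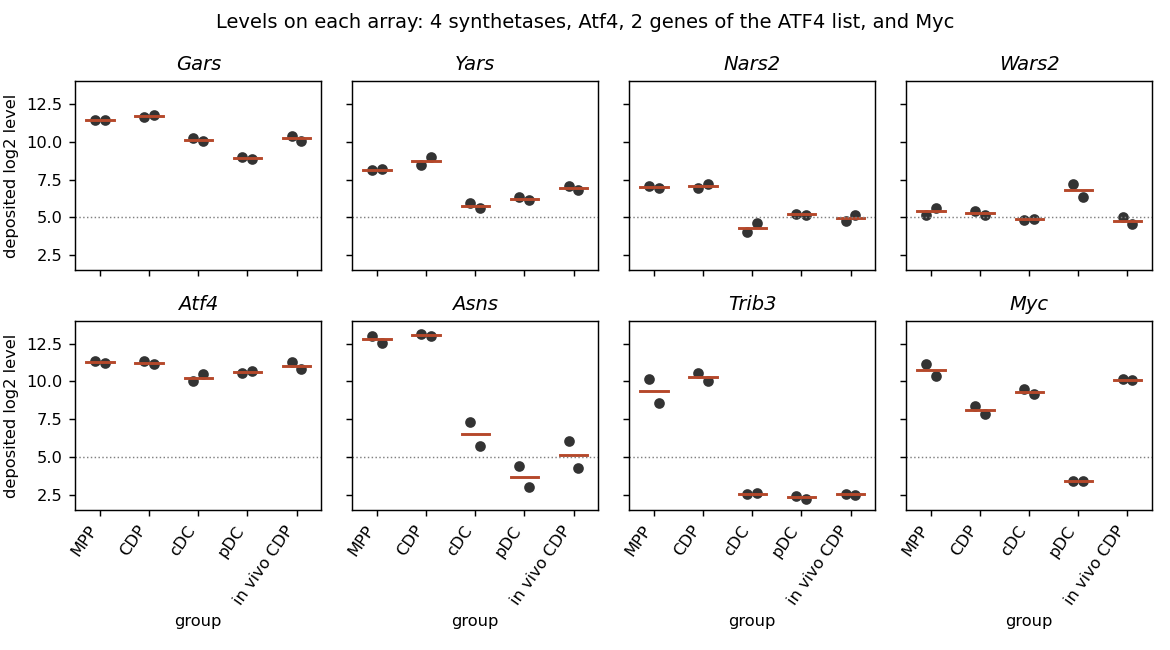
Deposited log2 level (vertical axis) of 4 synthetase genes, Atf4, Asns, Trib3 and Myc on each array (points) of the 5 cell groups, with the group mean (line) and the filter level of 5 (dotted). Gars and Yars are lower in cDC, pDC and in vivo CDP than in MPP and CDP, as are Asns and Trib3, while Atf4 stays between 10.01 and 11.35 and Myc is lowest in pDC.

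Proliferation genes were also lower in the dendritic cells, where 29.3% of tested genes fell in cDC and 31.6% in pDC. Of 19 proliferation genes, 18 fell in cDC (median -1.50) and 18 in pDC (median -2.38). Their summed log2 level was 16.50 to 16.78 in CDP, 15.34 to 15.55 in cDC and 14.61 to 14.85 in pDC, and their part in the synthetase result was not tested. Granulocyte markers were lower too, 5 of 8 in each dendritic cell type (medians -4.15 in cDC and -5.19 in pDC). Their summed level was 13.50 to 14.05 in CDP, 7.90 to 7.95 in cDC and 7.71 to 7.98 in pDC, with 7 of 8 under 5 on both arrays of each dendritic cell type, and the part of such cells was not tested either. In vivo, where 19.5% of tested genes fell and 27.6% rose, 3 proliferation genes fell and 1 rose. Their median was 0.03 and their summed level 16.50 to 16.56. In vivo, granulocyte markers went the other way, 6 of 8 being higher in vivo than in cultured CDP and 1 lower, with summed levels of 14.17 to 15.04 against 13.50 to 14.05. The part of such cells in the in vivo values was not tested.

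**Figure D4:**
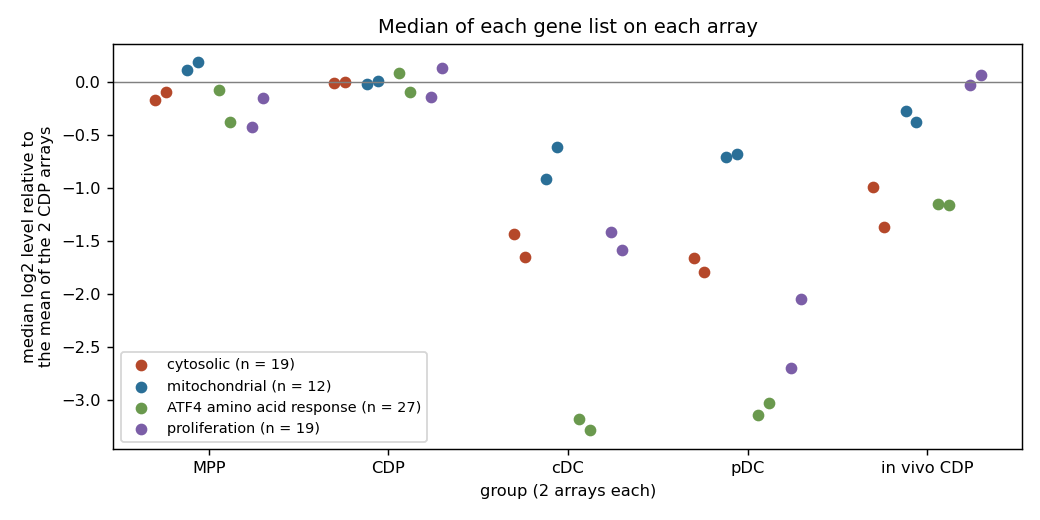
Median log2 level of 4 gene lists on each array, relative to the mean of the 2 CDP arrays (vertical axis), by cell group. On the in vivo arrays the cytosolic synthetases are at -0.99 and -1.37 and the ATF4 list at -1.15 on both, while the proliferation list is at -0.02 and 0.07.

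In the rest of the tRNA pathway, Xpot, which exports tRNA from the nucleus, fell from 12.33 and 12.44 in CDP to 9.42 and 9.65 in cDC, a fall of 7.22-fold. Its pDC arrays read 9.40 and 9.66 and its in vivo arrays 9.77 and 9.59, falls of 7.25-fold and 6.52-fold. Of 18 tested genes for RNA polymerase III and tRNA export, 7 fell and 0 rose in cDC, and 8 fell and 1 rose (Brf1) in pDC. Of all tested genes, 29.3% fell and 18.7% rose in cDC, and 31.6% fell and 21.7% rose in pDC. These shares also stand beside the lists that follow. Of 22 tested genes for tRNA end processing and modification, 15 fell in cDC, and 17 fell and 1 rose (Trmu) in pDC. Rpp40, a subunit of RNase P that trims the 5′ end of tRNA, went from 7.34 and 8.07 in CDP to 3.88 and 3.96 in cDC, at least 6.52-fold. Adat2, which makes inosine in the anticodon, went from 7.84 and 7.20 to 4.10 and 4.47 in pDC, at least 5.73-fold.

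Downstream of charging, 1 of 6 cytosolic elongation factors fell in each dendritic cell type (Eif5a, by 0.89 in cDC and 0.73 in pDC). Mitochondrial translation factors fell in 5 of 7 tested in each type, among them Tufm, the mitochondrial elongation factor Tu, by 1.82 in cDC and 1.98 in pDC. The other mitochondrial charging genes gave 4 falls of 8 in cDC (Tars2 by 1.17 and Pars2 by 1.35 among them) and 2 falls (Tars2 and Gatb) and 1 rise (Hars2, by 0.58) in pDC. In vivo these lists moved both ways: 5 of 19 tested genes for polymerase III and export fell and 5 rose, and 7 of 23 for processing and modification fell and 2 rose. Of all tested genes, 19.5% fell and 27.6% rose in vivo.

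With TGF-β1, most of the cytosolic calls came at 24 h. At 4 h and 8 h, 0 of 19 cytosolic and 0 of 12 mitochondrial members passed limma's test, where 0.648% and 1.55% of tested genes did. At an unadjusted p under 0.05 the cytosolic counts were 0 and 2 and the mitochondrial counts 1 and 1. At 12 h Rars alone fell, where 1.68% of tested genes fell. At 24 h, 8 of 19 cytosolic members fell (Farsb, Gars, Iars, Kars, Lars, Mars, Rars and Tars), where 8.43% of tested genes fell, and Qars rose, where 10.8% rose. Of 12 mitochondrial members, Ears2 and Rars2 fell. The median difference at 24 h was -0.95 for cytosolic and -0.47 for mitochondrial genes, against -0.00075 over all genes tested.

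Rars, the arginine enzyme of the complex, read 11.01 and 10.998 at 0 h, 10.84 on both arrays at 4 h, 10.78 and 10.49 at 8 h, 10.06 and 10.23 at 12 h and 9.59 and 9.70 at 24 h. Its replicates lay close together at every time but 8 h. Rars had fallen 1.82-fold at 12 h (limma adjusted p = 0.022) and 2.57-fold at 24 h (log2 difference -1.36, SE 0.16, adjusted p = 0.0011). Tars, the threonine enzyme, read 10.97 and 11.22 at 0 h and 9.54 and 10.24 at 24 h (2.31-fold lower, limma adjusted p = 0.024). Gars read 11.24 and 11.39 at 0 h and 9.91 and 10.52 at 24 h (2.15-fold lower, limma adjusted p = 0.013). For these last 2 genes the array with low 5′ signal was the lower one at 24 h.

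Qars was the only cytosolic member that rose, from 11.15 and 11.33 to 12.33 and 11.89 at 24 h (1.83-fold, limma adjusted p = 0.029). Its 3 other probe sets differed by 0.13 to 0.26, in the same direction but far smaller. The chosen probe set of Qars carries the suffix x, by which the manufacturer marks probes that can match other transcripts. Those of Farsb, Wars and Yars2 carry it too. Cars had the largest difference of all (-1.58), yet it did not pass, since its 24 h arrays read 6.19 and 8.13 (limma adjusted p = 0.12). The other probe set of Cars differed by -0.36. Vars (9.83 and 10.68), Farsa (7.97 and 8.93) and Hars (11.33 and 10.26) also had replicates far apart at 24 h and did not pass. Other probe sets of Farsa differed by -0.14 to -0.50, where the chosen one differed by -1.49. That of Hars differed by -1.22, where the chosen one differed by -0.50.

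Among mitochondrial members, Ears2, the glutamate enzyme, read 7.31 on both arrays at 0 h and 6.25 and 5.94 at 24 h (2.32-fold lower, limma adjusted p = 0.0046). Rars2 read 9.83 and 9.71 at 0 h and 9.06 and 9.03 at 24 h, a fall of 1.65-fold (adjusted p = 0.015). By the pair, the mitochondrial difference was the less negative one in 7 of 12 at 24 h (median gap 0.45). The moderated F-test over the 4 times called 2 cytosolic members (Mars and Rars) and 1 mitochondrial member (Ears2), where 9.74% of tested genes were called.

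**Figure D5:**
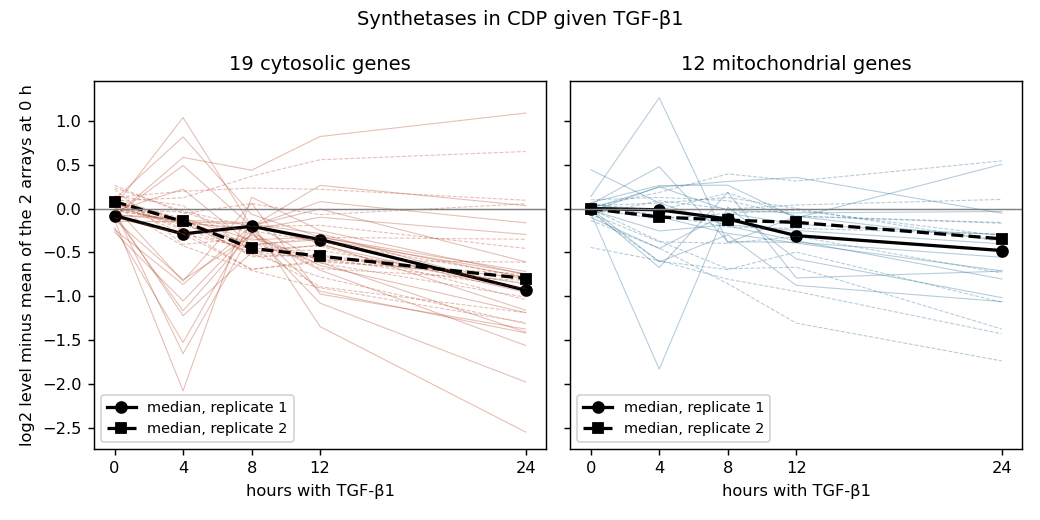
Log2 level of the 19 cytosolic (left) and 12 mitochondrial (right) synthetase genes, relative to the mean of the 2 arrays at 0 h, against hours with TGF-β1; thin lines are genes and thick lines medians, solid for replicate 1 and dashed for replicate 2. The cytosolic medians at 24 h are -0.93 and -0.80 and the mitochondrial medians -0.48 and -0.34, and single genes of replicate 1 swing widely at 4 h.

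The replicates of the TGF-β1 series lay furthest apart at 4 h. The median distance between the 2 arrays was 0.79 for cytosolic and 0.47 for mitochondrial genes at 4 h, and 0.44 and 0.37 at 24 h. It was 0.16 and 0.10 at 0 h, 0.29 and 0.24 at 8 h and 0.26 and 0.18 at 12 h. Replicate 1 had dim 5′ probe sets at 4, 12 and 24 h, and the part of this in the distances was not tested. At 4 h Vars read 8.51 and 10.78, Farsa 8.29 and 9.75 and Sars2 5.41 and 7.22. Taken within each replicate series, the level at 24 h was under that at 0 h for 17 of 19 cytosolic genes in replicate 1 and 18 of 19 in replicate 2, and for 11 and 10 of 12 mitochondrial genes. Their median changes were -0.82 and -0.86 for cytosolic genes and -0.55 and -0.36 for mitochondrial genes. By group means, 6334 of 12655 tested genes were lower at 24 h than at 0 h. The share of all genes within each replicate series was not computed.

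Without the 3 arrays of low 5′ signal, 24 h had 1 array left, which the fit assumes to vary like the other groups, and 13 cytosolic members were called lower and Qars higher, while 5 mitochondrial members were called lower and Fars2 higher. With the replicate number as a block, a replicate block that pairs arrays of the same number, 13 cytosolic members were called lower and Qars higher at 24 h, and 5 mitochondrial members lower. Calls rose among all genes too: 2438 of 12655 were called at 24 h in the unblocked fit, 3810 of 12655 with the block and 3971 of 12464 without the 3 arrays. All 9 cytosolic and both mitochondrial calls of the unblocked fit were among those of each of these fits. At 12 h the blocked fit called Qars higher and Rars, Ears2 and Mars2 lower, and the F-test with the block called 8 cytosolic and 2 mitochondrial members. Single arrays weighed heavily the other way: the 24 h cytosolic count was 3 without 0 h replicate 1, 1 without 0 h replicate 2 and 2 without 24 h replicate 1, and the mitochondrial count was 1 without any 1 of the 4 arrays. The Rars call at 12 h was lost without any 1 of its 4 arrays, with log2 differences of -0.78 to -0.94 and adjusted p of 0.083 to 0.17. At 4 h, 4 cytosolic and 1 mitochondrial members were called without 4 h replicate 2, which leaves the array of low 5′ signal; 1320 of 12603 tested genes were called in that setting.

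The scaffold of the complex declined beside its enzymes. Eef1e1 read 11.50 and 11.48 at 0 h, 10.42 and 10.35 at 8 h, 9.67 and 10.14 at 12 h and 9.11 and 9.41 at 24 h. It had fallen 2.15-fold at 8 h (limma adjusted p = 0.037) and 4.69-fold at 24 h (adjusted p = 0.00031). No synthetase passed the test at 8 h, when the cytosolic median difference was -0.33. Whether Eef1e1 fell earlier than the synthetases was not tested. Aimp2 fell from 10.62 and 10.60 to 7.90 and 8.70 at 24 h (4.96-fold, adjusted p = 0.0097), and Aimp1 read 10.97 and 11.07 at 0 h and 10.63 and 11.36 at 24 h. Xpot fell 2.27-fold, and 11 of 25 genes of tRNA end processing and modification fell at 24 h, led by Wdr4 and Trmt61a. Of all tested genes, 8.43% fell at 24 h.

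Myc fell with time, reading 11.49 and 11.35 at 0 h, 9.11 and 9.30 at 12 h and 7.94 and 8.50 at 24 h (9.16-fold lower at 24 h, limma adjusted p = 0.00082). Mxd4, a repressor that competes with MYC for its partner MAX, rose from 6.44 and 6.41 to 10.77 and 10.15 (16.4-fold, adjusted p = 0.0002). At 24 h, 8.43% of all tested genes fell and 10.8% rose. In the ATF4 list 8 of 26 tested genes fell and 1 rose (Ddit4, 3.10-fold) at 24 h. Cth read 7.24 and 8.34 at 0 h and 4.33 and 4.62 at 24 h, while Asns (log2 difference -0.97), Trib3 (-1.25) and Atf4 (-1.07) did not pass (limma adjusted p = 0.065, 0.061 and 0.14). Proliferation genes declined too, 6 of 19 falling at 24 h with a summed level of 16.20 to 16.24 at 0 h and 15.64 to 15.73 at 24 h. Markers of cDC moved with time as well: all 9 tested rose at 24 h (median difference 2.21 over 10 measured), with a summed level of 10.86 to 11.29 at 0 h and 13.05 to 13.94 at 24 h. The part of these genes in the synthetase result was not tested.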

How the data were processed

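RNA from 20 samples (10 groups of 2) was hybridised to 1-colour arrays. The deposited values are log2 intensities that the authors made with GCRMA, per the submitters' processing notes, which name no version. The 10 TGF-β1 arrays do not share the floor of the other 10, so each set was fitted on its own. Of 45101 probe sets, 64 were controls, 34945 had 1 gene symbol, 932 several and 9160 none. Probe sets with 1 symbol gave 18193 genes, 9010 of them with more than 1 probe set, and the one with the highest mean over 20 arrays was kept.

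Genes above 5 on at least 2 arrays of a fit were tested with limma 3.58.1 in R 4.3.3 (two-sided, Benjamini-Hochberg over all tested genes, threshold 0.05): 8900 genes for MPP, CDP, cDC and pDC, 9121 with in vivo CDP added and 12655 for TGF-β1. The script was tested on simulated data. "At least" folds set values under 5 to 5. A summed level is the log2 of the markers' summed linear intensities. Values by array were to be printed for the 3 cytosolic and 2 mitochondrial members with the largest called difference in each comparison, for Myc and Atf4, and for up to 2 called genes per direction of each other list; further genes were chosen after their values were seen. The members and lists were chosen with earlier results of these data known. Alternatives changed the filter, scaling, low values, probe set, spread estimate, replicate block and arrays used.

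Same-numbered TGF-β1 arrays deviated together from their group means (r of 0.27 to 0.85 over 10 pairs of groups), so their numbers were taken as pairing them, on this check and not on a label. The highest r, 0.67 to 0.85, were among 4, 12 and 24 h, whose replicate 1 arrays share dim 5′ probe sets; the part of this in the correlation was not tested. The labels do not say what a replicate number marks. A further promoter sequence is not reported here.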

Additional observations from a re-analysis of the deposited data

Results flagged for a closer look

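The changes from CDP differed between cDC and pDC for 5 of 28 tested members, by the direct limma comparison of the 2 cell types. Of all 8900 tested genes 2273 were called in that comparison, so the share among members was not above that among all genes. The difference, cDC minus pDC on the log2 scale, was 1.22 for Gars, -0.90 for Vars, -1.14 for Wars, -0.88 for Nars2 and -1.91 for Wars2. Gars and Wars2 kept their call when any 1 of the 4 arrays was left out, and Vars, Wars and Nars2 did not.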

How the results depend on the processing

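The 26 named differences had 292 values under alternatives: 264 kept direction and call, 28 kept direction but lost the call and 0 reversed. With no filter on low values 1 cytosolic member (Cars) was called for CDP against MPP, 3 mitochondrial members in cDC, 3 in pDC and 0 between cDC and pDC. With quantile normalization 1 cytosolic member (Farsa) was called for CDP against MPP, 1 mitochondrial member between cDC and pDC, 1 mitochondrial member at 12 h and 1 cytosolic member over all times. With values under 5 raised to 5, 1 mitochondrial member was called between cDC and pDC, and with trend and robust estimates 1 cytosolic member over all times.

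With the replicate block, the cytosolic and mitochondrial counts were 2 and 2 at 12 h, 14 and 5 at 24 h and 8 and 2 over all times. Without the 3 arrays of low 5′ signal they were 4 and 1, 14 and 6, and 5 and 3. Same-numbered arrays of MPP, CDP, cDC and pDC had r of -0.06 to 0.58: MPP with CDP (0.58) and cDC with pDC (0.44) deviated together, but not every pair of groups did, so the numbers were not taken as pairing. The block left the counts there as they were.

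When 1 array was left out at a time, cytosolic counts ranged from 0 to 0 for CDP against MPP, 15 to 16 in cDC, 14 to 17 in pDC, 1 to 3 between cDC and pDC and 15 to 16 in vivo. Mitochondrial counts ranged from 0 to 0, 4 to 6, 5 to 7, 1 to 2 and 4 to 7. With TGF-β1 the cytosolic ranges were 0 to 4 at 4 h, 0 to 0 at 8 h, 0 to 0 at 12 h, 1 to 8 at 24 h and 1 to 9 over all times, and the mitochondrial ranges 0 to 1, 0 to 0, 0 to 0, 1 to 1 and 0 to 4. The cause of these shifts was not tested, beyond the fewer arrays or the larger number of genes that a setting itself brings. Signal near the floor limits Aars2, Ears2 and Sars2 in the cell groups.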
